A study of Homo sapiens with 6 samples.

Results

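Nucleoporins and the importin and exportin transport receptors were followed in A375 cells, an established human melanoma line carrying the BRAFV600E mutation, exposed for 24 h to vemurafenib at 10 µM, a BRAF kinase inhibitor, or to its vehicle, DMSO at 0.1%. Both groups were A375 cells, so all arrays share the mutation, and each group held 3 single-colour Affymetrix arrays of total RNA, 1 from each of 3 cell stocks handled on separate days. Each stock gave a vehicle and a drug sample, but the labels do not show which arrays share one. A375 is 1 line, so the arrays replicate the culture and not the tumour. The genes were found by symbol: any probe set that named exactly 1 gene beginning NUP, KPNA, KPNB, IPO, XPO or TNPO plus a digit (or XPOT) counted, and the brightest probe set stood for each gene. This gave 47 of the 18417 genes measured, 23 nucleoporins and 24 transport receptors, of which 46 are protein-coding and 1, NUP210P1, is a transcribed pseudogene. The probe set for NUP62 also named another gene and was not used here. Levels are deposited log2 values, changes are vemurafenib minus vehicle on that scale, and a gene passed when its limma adjusted p (Benjamini-Hochberg over all 18417 genes) was under 0.05.

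The nuclear pore complex is a ring-shaped channel through the nuclear envelope. Its scaffold consists of outer rings built from the Y complex and an inner ring, and its passage is filled by nucleoporins rich in phenylalanine-glycine (FG) repeats. Importins recognise proteins with a nuclear localisation signal and carry them in, exportins carry proteins and some RNAs out, and the small GTPase RAN sets the direction by making importins release their cargo and exportins bind theirs inside the nucleus. Dividing cells assemble new pores in interphase and rebuild the envelope with its pores after mitosis.

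Transcripts that follow ERK signalling were lower with the drug. All 12 measured genes of ERK pathway output fell, and DUSP6, a phosphatase that ERK signalling induces, fell by 4.21 on the log2 scale. MITF (10.17 ± 0.05 in vehicle, SD, n = 3) and SOX10 (11.48 ± 0.03), transcription factors of pigment cells, were far above the median of 5.52 over 361 olfactory receptor genes, taken as a guide to background. With S100B they were the 3 of 7 measured melanocyte markers that rose, S100B by 0.91, MITF by 0.75 and SOX10 by 0.30, and the log2 of the list's summed level ran from 12.42 to 12.44 in vehicle and from 12.94 to 13.04 with drug. MLANA, a melanosomal antigen, at 5.78 ± 0.07, was near that median. These marker counts stand beside 22.2% of all genes tested that fell, 23.2% that rose and 45.5% that passed in either direction. Of the marker lists for other cells, 0 of 6 keratinocyte genes passed and 3 of 7 endothelial genes (KDR, PECAM1 and CLDN5) fell. The PECAM1 call, at a vehicle level of 5.74 near that same median, was lost in 4 of its alternatives (limma adjusted p up to 0.133), and that of CLDN5 in 2 (up to 0.0735). Among 7 fibroblast markers, 3 (DCN, LUM and PDGFRB) rose, the log2 of the list's summed level running from 10.39 to 10.57 in vehicle and from 11.03 to 11.22 with drug. DCN read 5.46 ± 0.02 in vehicle, below the olfactory receptor median, and 6.92 ± 0.18 with drug. Among 6 leukocyte markers CD68 rose and LYZ and CD14 fell, with sums of 12 to 12.11 in vehicle and 12.6 to 12.68 with drug. The sum followed CD68, the brightest of these called genes, which went from 11.39 ± 0.09 to 12.4 ± 0.07. LYZ changed by -0.75 and CD14 by -0.32. The part of these marker changes in the results below was not tested.

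Most nucleoporin and transport receptor transcripts were lower with vemurafenib. Of the 47 genes, 31 fell, 5 rose and 11 did not pass. Over all genes tested 22.2% fell, 23.2% rose and 45.5% passed in either direction. With each array centred on its median over all genes tested, 30.6% of all genes fell and 20% rose, and of the 47 genes 36 fell and 4 rose. The median change was -0.47 over the 47 genes and -0.05 over all genes. By nucleoporins alone it was 16 lower and 1 higher of 23 (median -0.66), and by transport receptors alone 15 lower and 4 higher of 24 (median -0.28). The changes were modest: 15 of the 47 fell at least 1.5-fold, against 7.03% of all genes, 12 of these 15 being nucleoporins, and only NUP205 fell at least 2-fold. In 38 of the 47 the vemurafenib arrays lay wholly below the vehicle arrays, against 28.5% of all genes, and in 5 wholly above, against 26.9%. Brighter genes passed more often, so the fit was also made on the 9208 genes brighter than the median. There 33 of 42 of these genes fell, against 32.3% of that set, and 3 rose, against 32.5%. In RNA from whole dishes, fewer cells at a stage that makes a transcript and less of it per cell cannot be told apart.

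**Figure D1:**
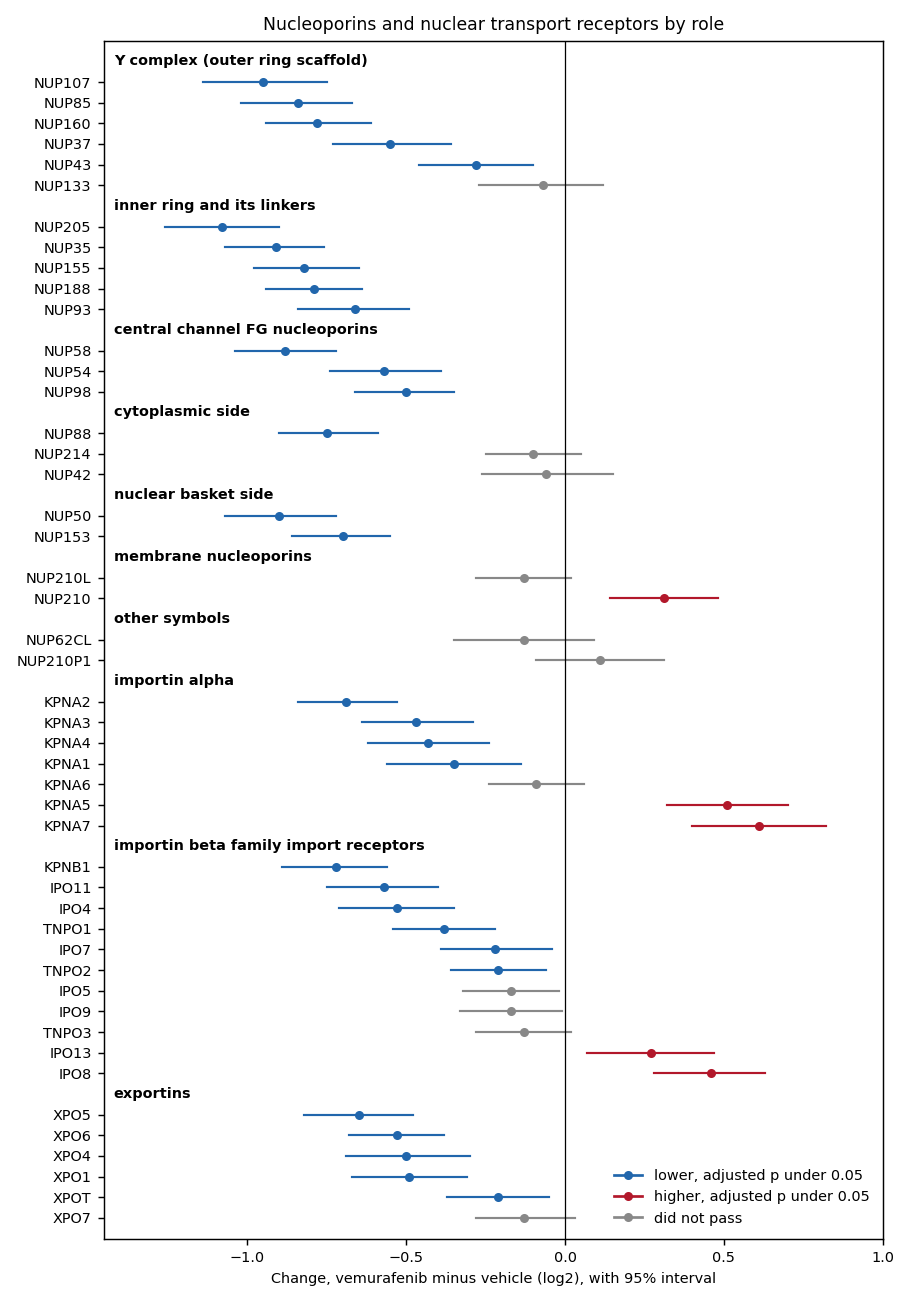
Change of each of the 47 genes, vemurafenib minus vehicle on the log2 scale (horizontal axis), grouped by role, with points for the limma estimate and bars for its 95% interval. Blue genes passed as lower, red as higher and grey did not pass. The inner ring genes sit between -1.08 and -0.66, while NUP210, IPO13, IPO8, KPNA5 and KPNA7 sit right of 0.

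DNA replication and mitosis genes fell in the same arrays. All 27 measured replication genes and all 20 mitosis genes passed as lower, with median changes of -1.49 and -1.11, and 20 of 22 ribosome biogenesis genes fell (median -0.88). The log2 of the summed level of the replication list ran from 15.48 to 15.62 in vehicle and from 14.01 to 14.15 with drug, and that of the mitosis list from 15.78 to 15.9 and from 14.62 to 14.94. The part of cell number or cycle stage in the changes below was not tested.

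The inner ring, which anchors the pore to the envelope and the channel, fell as a whole: 5 of 5 genes passed as lower. NUP205, a large inner ring scaffold protein, read 10.98, 10.75 and 11.0 in the 3 vehicle arrays and 9.87, 9.84 and 9.79 in the vemurafenib arrays, a change of -1.08 (SE 0.08, 2.11-fold lower, limma adjusted p 1.03e-06). The groups were far apart, and the second vehicle array was the lowest of its group. NUP188, its structural relative, read 11.66, 11.59 and 11.65 against 10.87, 10.8 and 10.85 (-0.79, SE 0.07, limma adjusted p 2.55e-06). NUP35, which binds the membrane and links the ring, read 9.59, 9.46 and 9.59 against 8.64, 8.6 and 8.66 (-0.91, SE 0.07, limma adjusted p 1.27e-06). In both genes the drug arrays were close together and well below the vehicle arrays. NUP155, another membrane-binding scaffold protein, read 12.42, 12.31 and 12.39 against 11.64, 11.56 and 11.46 (-0.82, SE 0.08, limma adjusted p 4.38e-06). NUP93, the linker that holds the ring's parts together, changed least of these, from 11.25, 11.18 and 11.38 to 10.68, 10.63 and 10.52 (-0.66, SE 0.08, limma adjusted p 3.54e-05).

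Of the 6 Y complex genes, which form the outer rings, 5 fell and NUP133 did not pass. NUP107, in the stem of the Y, read 10.63, 10.4 and 10.61 in vehicle and 9.72, 9.62 and 9.47 with drug (-0.95, SE 0.09, 1.93-fold lower, limma adjusted p 5.95e-06). NUP85, in a short arm, read 10.22, 9.97 and 10.1 against 9.29, 9.26 and 9.21 (-0.84, SE 0.08, limma adjusted p 5.64e-06), and NUP160, near the hub, 10.72, 10.59 and 10.75 against 9.96, 9.93 and 9.85 (-0.78, SE 0.07, limma adjusted p 6.28e-06). The vehicle and drug arrays of these genes did not overlap. The beta-propeller proteins NUP37 and NUP43 changed by -0.55 (SE 0.08, limma adjusted p 0.000257) and -0.28 (SE 0.08, limma adjusted p 0.0157). The NUP43 call was lost without vehicle replicate 1 (limma adjusted p 0.051, range over its alternatives 0.0021 to 0.051).

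NUP133 is the partner of NUP107 at the end of the stem. It read 10.44, 10.28 and 10.54 in vehicle and 10.41, 10.41 and 10.21 with drug, so the groups overlapped. Its change was -0.07, with a 95% interval of -0.27 to 0.12 (limma adjusted p 0.529). To compare the partners, the log2 ratio of NUP107 to NUP133 was taken within each array. It went from 0.13 ± 0.06 to -0.74 ± 0.05 (SD, n = 3), a shift of -0.87. The exact permutation test (2-sided) gave p = 0.10, the smallest that 3 against 3 arrays allow, and 0.10 after Benjamini-Hochberg adjustment over the 4 gene pairs compared. Those pairs were chosen after their values were seen, so these p values lend no support to a shift in the ratios.

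In the channel, 3 of 3 measured FG nucleoporins fell. NUP58, which with NUP54 and NUP62 forms the central transport channel, read 11.09, 11.0 and 11.15 against 10.25, 10.21 and 10.13 (-0.88, SE 0.07, 1.84-fold lower, limma adjusted p 2.17e-06). NUP54 changed by -0.57 (SE 0.08, limma adjusted p 0.000134). NUP98, a mobile FG nucleoporin that also binds chromatin, read 11.42, 11.4 and 11.48 against 10.97, 10.97 and 10.85 (-0.50, SE 0.07, limma adjusted p 0.000132). The channel genes thus differed in size of change but each had groups that lay apart.

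Both genes of the nuclear basket side fell. NUP50, a cofactor of importin alpha, read 9.42, 9.32 and 9.33 against 8.54, 8.5 and 8.32 (-0.90, SE 0.08, limma adjusted p 3.31e-06). NUP153, which anchors the basket, read 11.65, 11.55 and 11.69 against 10.9, 10.94 and 10.93 (-0.70, SE 0.07, limma adjusted p 9.29e-06). On the cytoplasmic side the 3 genes differed. NUP88 fell, from 12.17, 12.23 and 12.24 to 11.52, 11.49 and 11.39 (-0.75, SE 0.07, limma adjusted p 5.87e-06). NUP214, an FG nucleoporin that NUP88 holds in place, read 11.85, 11.8 and 11.88 against 11.77, 11.73 and 11.71. Its drug arrays lay just below its vehicle arrays, and its change of -0.10 (95% interval -0.25 to 0.05) did not pass. NUP42, which helps to release exported mRNA, read 9.27, 9.17 and 9.2 against 9.12, 9.35 and 8.99, overlapping groups with a change of -0.06 (95% interval -0.26 to 0.15).

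NUP210, a membrane-spanning nucleoporin whose level varies between cell types, was the single nucleoporin that rose. It read 8.71, 8.59 and 8.57 in vehicle and 9.03, 8.88 and 8.89 with drug (0.31, SE 0.08, 1.24-fold higher, limma adjusted p 0.00587). All drug arrays were above all vehicle arrays. Its pseudogene NUP210P1 (0.11, limma adjusted p 0.334) is similar in sequence, so probes for either may have read both. NUP210L, a paralog, and NUP62CL, related to NUP62, lay at 5.44 ± 0.01 and 5.33 ± 0.17 in vehicle, below the olfactory receptor median, so neither was shown to be above background and their changes of -0.13 each say nothing of expression.

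Among the 23 nucleoporins the symbol rule gave, NUP205, NUP107, NUP35 and NUP50 had the largest changes, all falls, and were picked for that size. The 250 bases before their RefSeq start sites (GRCh38.p14, all on the plus strand, written 5′ to 3′) are printed to show what these promoters hold. Searched on both strands were the E-box CACGTG, the E2F string GCGGGAA, the ETS string CCGGAAG, the cell cycle homology element (CHR) TTTGAA and the CCAAT box CCAAT, none of which contains another. Capitals mark their matches. NUP205 lies at chr7:135557667-135557916, NUP107 at chr12:68686728-68686977, NUP35 at chr2:183124193-183124442 and NUP50 at chr22:45163675-45163924.
NUP205: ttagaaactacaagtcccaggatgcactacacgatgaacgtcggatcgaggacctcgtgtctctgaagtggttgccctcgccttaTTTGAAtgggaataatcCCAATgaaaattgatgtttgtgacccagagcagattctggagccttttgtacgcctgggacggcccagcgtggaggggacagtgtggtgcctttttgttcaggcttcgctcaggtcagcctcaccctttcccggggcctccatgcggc
NUP107: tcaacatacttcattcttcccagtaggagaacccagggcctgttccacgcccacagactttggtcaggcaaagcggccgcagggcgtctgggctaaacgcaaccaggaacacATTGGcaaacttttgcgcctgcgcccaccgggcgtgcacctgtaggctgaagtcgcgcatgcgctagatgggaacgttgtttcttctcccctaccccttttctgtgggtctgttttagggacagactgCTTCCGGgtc
NUP35: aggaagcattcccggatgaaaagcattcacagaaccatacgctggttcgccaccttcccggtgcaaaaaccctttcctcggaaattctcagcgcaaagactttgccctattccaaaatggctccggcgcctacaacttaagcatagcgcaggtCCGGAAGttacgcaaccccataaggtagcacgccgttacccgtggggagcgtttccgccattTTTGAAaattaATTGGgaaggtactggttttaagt
NUP50: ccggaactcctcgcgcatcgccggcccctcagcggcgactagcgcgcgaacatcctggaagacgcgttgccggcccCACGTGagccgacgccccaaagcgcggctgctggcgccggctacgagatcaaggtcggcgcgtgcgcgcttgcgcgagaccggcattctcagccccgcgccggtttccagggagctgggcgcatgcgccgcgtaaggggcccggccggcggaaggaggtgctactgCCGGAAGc

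Counting back from the start site at -1, NUP35 held an ETS string at -97 to -91, a CHR at -35 to -30 and a CCAAT box, on the reverse strand, at -24 to -20. NUP107 held an ETS string at -10 to -4 and a CCAAT box at -138 to -134, both on the reverse strand, and NUP50 an ETS string at -8 to -2 and an E-box at -174 to -169. NUP205 held a CHR at -165 to -160 and a CCAAT box at -148 to -144. Promoters were found for 40 of the 47 genes and for 14237 of the genes tested. The ETS string was present in 12 of the 40, against 12.1% of all these promoters, the CCAAT box in 20 of 40 against 34.4%, and the CHR in 8 of 40 against 10.6%. The E-box was in 6 of 40, against 7.86%, and the E2F string in 6 of 40, against 7.78%. Of the 28 falling genes with a promoter, 10 held the ETS string, 8 the CHR, 6 the E-box, 4 the E2F string and 13 the CCAAT box. Of the 9 genes with a promoter that did not pass, 2 held the ETS string, 1 the E2F string and 7 the CCAAT box. Of the 3 rising genes with a promoter, 1 held the E2F string and none another. A match is a description of letters and no evidence that a factor binds there.

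**Figure D2:**
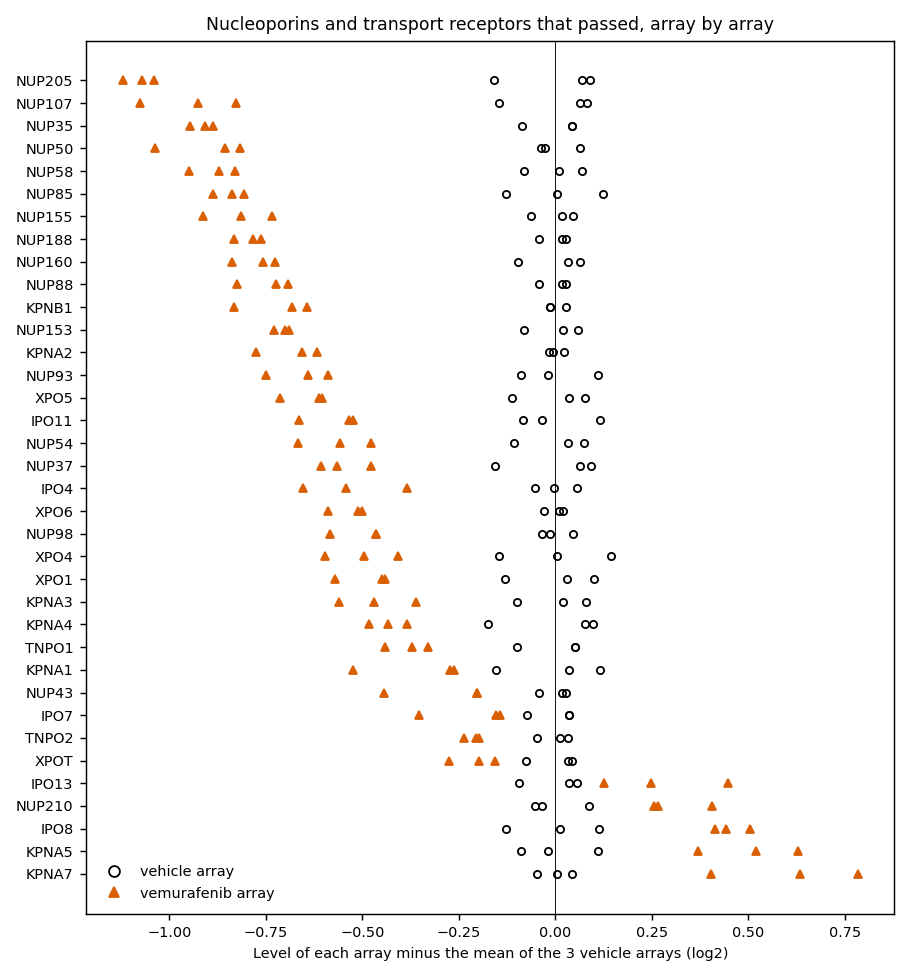
Level in each array minus the mean of the 3 vehicle arrays (log2, horizontal axis) for the 36 genes that passed, 31 lower and 5 higher, ordered by change. Open circles are vehicle arrays and filled triangles vemurafenib arrays, and in each gene the 2 groups of symbols do not overlap.

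Importin alpha proteins are adaptors that bind the classical nuclear localisation signal and hand the cargo to importin beta. Their 7 genes moved in both directions, with 4 lower, 2 higher and KPNA6 not passing. KPNA2, the family member most tied to proliferating cells, read 13.39, 13.36 and 13.35 in vehicle and 12.75, 12.71 and 12.59 with drug (-0.69, SE 0.07, 1.61-fold lower, limma adjusted p 1.31e-05). A second KPNA2 probe set, which the gene rule did not use, read 13.18, 13.14 and 13.12 against 12.53, 12.49 and 12.35 and also changed by -0.69 (SE 0.07). Its limma adjusted p was 1.81e-05 over 19460 probe sets. Both probe sets carry the same transcript accessions and come from the same RNA, so they are 2 readings of 1 transcript.

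KPNA7, the closest relative of KPNA2 and best known from the egg and early embryo, went the other way. It read 6.96, 6.92 and 6.87 in vehicle and 7.32, 7.7 and 7.55 with drug (0.61, SE 0.09, 1.52-fold higher, limma adjusted p 0.000255). All drug arrays were higher, but the vehicle mean of 6.92 was close to 6.87, the upper bound of the dimmest 25% of genes, and the part of background signal in the fold was not tested. The log2 ratio of KPNA2 to KPNA7 within arrays went from 6.45 ± 0.03 to 5.16 ± 0.23 (SD, n = 3), a shift of -1.29 (exact permutation p = 0.10, 0.10 adjusted). This pair too was chosen after its values were seen, so that p lends no support.

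KPNA3 and KPNA4, which form a subfamily of their own, both fell, by changes of -0.47 (SE 0.08, limma adjusted p 0.000567) and -0.43 (SE 0.09, limma adjusted p 0.00151). The remaining subfamily was mixed. KPNA1 changed by -0.35 (SE 0.10, limma adjusted p 0.0105). KPNA5 rose, from 7.58, 7.38 and 7.45 to 7.99, 8.1 and 7.84 (0.51, SE 0.09, 1.42-fold higher, limma adjusted p 0.000573). KPNA6 read 11.84, 11.8 and 11.83 against 11.75, 11.77 and 11.68, with drug arrays slightly lower and a change of -0.09 (95% interval -0.24 to 0.06) that did not pass. The KPNA1 to KPNA5 log2 ratio shifted by -0.86, from 3.32 ± 0.06 to 2.46 ± 0.07 (SD, n = 3, exact permutation p = 0.10, 0.10 adjusted). Since these genes were paired after their values were seen, that p lends no support.

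**Figure D3:**
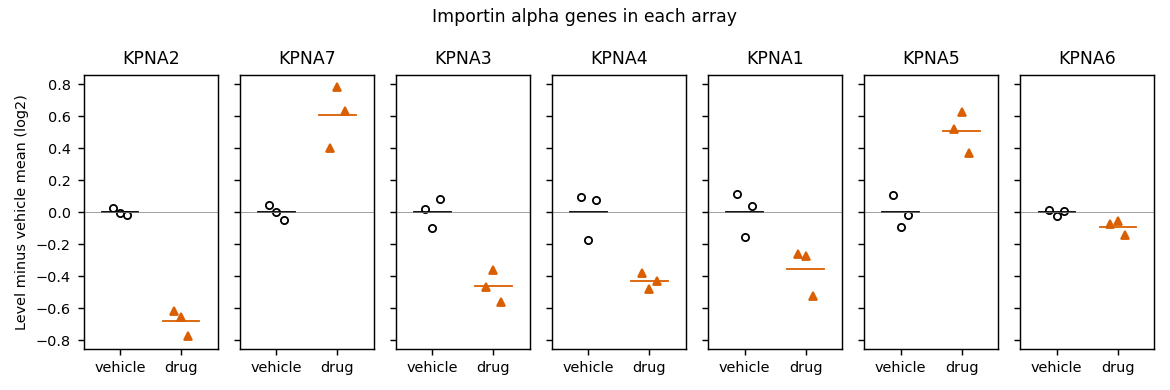
Importin alpha genes, 1 panel each, ordered by subfamily: level in each array minus the gene's vehicle mean (log2, vertical axis) in vehicle (open circles) and vemurafenib (triangles, "drug"), with group means as lines. KPNA2 and KPNA7 lie on opposite sides of 0, as do KPNA1 and KPNA5, while KPNA3 and KPNA4 are both lower.

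Among the 11 import receptors of the importin beta family, 6 fell, 2 rose and 3 did not pass. KPNB1, importin beta itself and the partner of all importin alphas, read 12.54, 12.5 and 12.5 in vehicle and 11.87, 11.68 and 11.83 with drug (-0.72, SE 0.08, 1.65-fold lower, limma adjusted p 1.2e-05). IPO11 (-0.57, SE 0.08) and IPO4 (-0.53, SE 0.08), which carries histones, followed, with limma adjusted p values of 0.000113 and 0.000289. TNPO1, the import receptor of many RNA-binding proteins, changed by -0.38 (SE 0.07, limma adjusted p 0.00142), and its close relative TNPO2 by -0.21 (SE 0.07, limma adjusted p 0.0243).

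The smallest of these calls were not stable. For TNPO2 the limma adjusted p ranged from 0.00497 to 0.0849 over its alternatives: the call was lost when the first or the third vehicle array was omitted (0.0836 and 0.0849), or the first or second drug array (0.0589 and 0.0656). IPO7, which imports ribosomal proteins among other cargo, changed by -0.22 (SE 0.08) and passed only just (limma adjusted p 0.0498, range 0.00892 to 0.175). It failed when the first or the third vehicle array was omitted (limma adjusted p 0.141 and 0.129), when any drug array was (0.0558, 0.0542 and 0.154 in array order), and after renewed quantile normalization (0.175). IPO5 and IPO9, just outside the threshold, changed by -0.17 each (limma adjusted p 0.067 and 0.0753), and TNPO3, which imports splicing factors, by -0.13 (limma adjusted p 0.14). In these 3 genes the drug arrays also lay wholly below the vehicle arrays. Each passed as lower once the arrays were centred on their medians (limma adjusted p 0.0151, 0.0189 and 0.0289, within ranges of 0.0127 to 0.248, 0.0167 to 0.254 and 0.0289 to 0.294). IPO5 also passed without the dimmest 25% or 50% of genes and with an intensity trend and robust eBayes (limma adjusted p 0.0483, 0.0311 and 0.0127). IPO9 also passed without the dimmest 50% and with that trend (limma adjusted p 0.0372 and 0.0167). TNPO3 passed with centring alone.

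IPO8 and IPO13 rose. IPO8, the close paralog of IPO7, read 10.48, 10.34 and 10.58 in vehicle and 10.91, 10.97 and 10.88 with drug (0.46, SE 0.08, 1.37-fold higher, limma adjusted p 0.000586). Its groups were clearly apart. The log2 ratio of IPO7 to IPO8 went from 1.83 ± 0.06 to 1.16 ± 0.09 (SD, n = 3), a shift of -0.67 (exact permutation p = 0.10, 0.10 adjusted). Again the pair was chosen after its values were seen, so that p lends no support. IPO13, which can both import and export, read 9.82, 9.69 and 9.84 against 10.03, 9.91 and 10.23 (0.27, SE 0.09, limma adjusted p 0.0301). Its call was lost with arrays centred on their medians (limma adjusted p 0.0648) and on omission of the first or second vehicle array (0.0542 and 0.0952) or the first or the third drug array (0.0593 and 0.0997). Over its alternatives the limma adjusted p ranged from 0.0121 to 0.0997.

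Exportins fell in 5 of 6 cases, and none rose. XPO5, which exports microRNA precursors, read 11.02, 10.87 and 11.06 in vehicle and 10.37, 10.38 and 10.27 with drug (-0.65, SE 0.08, 1.57-fold lower, limma adjusted p 3.51e-05). XPO1, the main exporter of proteins with a leucine-rich export signal and a drug target in cancer, read 12.1, 11.87 and 12.03 against 11.55, 11.56 and 11.43 (-0.49, SE 0.08, 1.4-fold lower, limma adjusted p 0.000465). Vehicle replicate 2 was again the lowest of its group, yet above every drug array. XPO6, the exporter of actin and profilin, and XPO4 changed by -0.53 (SE 0.07, limma adjusted p 6.47e-05) and -0.50 (SE 0.09, limma adjusted p 0.000736).

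XPOT, the exporter of tRNA, changed by -0.21 (SE 0.07, limma adjusted p 0.0333, range over its alternatives 0.00665 to 0.114). That call was lost after renewed quantile normalization (limma adjusted p 0.0661), on omission of the first or the third vehicle array (0.114 and 0.104), and on omission of any drug array (0.0513, 0.11 and 0.0509 in array order). XPO7 changed by -0.13 (95% interval -0.28 to 0.03, limma adjusted p 0.164, range 0.0351 to 0.359) and passed as lower with centred arrays (limma adjusted p 0.0351).

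The second vehicle array was the lowest vehicle array for 40 of the 47 genes, against 44.7% of all genes. Vemurafenib replicate 3 was the lowest drug array for 31 of the 47, against 33.4%. Without that vehicle array 31 of the 47 fell and 4 rose, where 20.5% of all genes fell and 21.5% rose. Without that drug array 29 fell and 4 rose, where 22.8% of all genes fell and 22.4% rose. The counts thus did not rest on either array.

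The wider transport machinery was counted in the same fit on lists that hold none of the 47 genes. Of 11 other pore subunits 5 fell and 0 rose (median change -0.19), where 22.2% of all genes fell. SEH1L, a Y complex subunit, read 10.47, 10.22 and 10.36 in vehicle and 9.36, 9.32 and 9.37 with drug (-1.0, SE 0.08, limma adjusted p 1.38e-06). NDC1, a membrane nucleoporin that recruits the inner ring, read 11.22, 11.04 and 11.1 against 10.29, 10.19 and 10.25 (-0.88, SE 0.07, limma adjusted p 2.4e-06). These changes were of the size seen in NUP107 and NUP35. RAE1, an mRNA export factor of the pore, and AAAS changed by -0.43 and -0.30 (limma adjusted p 0.00138 and 0.00467). TPR, the filament of the basket, read 10.78, 10.66 and 10.72 in vehicle and 10.77, 10.8 and 10.69 with drug, overlapping groups (limma adjusted p 0.763). RANBP2, the cytoplasmic filament, changed by -0.19 (limma adjusted p 0.0827, range over its alternatives 0.0281 to 0.235). It has near-identical copies in the genome that its probes may also read, and it passed when the second array of vehicle (limma adjusted p 0.0499) or of drug (0.048) was left out, with centred arrays (0.0281), after renewed quantile normalization (0.0475) and without the dimmest 50% of genes (0.0461).

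Of 13 genes of the RAN cycle and other transport factors, 5 fell, 1 rose and 7 did not pass (median -0.12). Over all genes tested 22.2% fell and 23.2% rose (median -0.05). Named below are the fallers with the largest changes. RANBP1, which helps RAN hydrolyse GTP, read 11.11, 11.06 and 11.13 in vehicle and 9.91, 9.73 and 9.89 with drug (-1.25, SE 0.08, 2.38-fold lower, limma adjusted p 1.67e-07). RANGAP1, the GTPase activator at the pore, read 10.77, 10.79 and 10.81 against 9.97, 9.92 and 9.89 (-0.86, SE 0.07, limma adjusted p 1.26e-06). RAN read 12.41, 12.32 and 12.6 against 11.8, 11.9 and 12.02 (-0.54, SE 0.09, limma adjusted p 0.000457). In each of these the groups were apart. CSE1L, the exportin that returns importin alpha to the cytoplasm, read 13.04, 12.95 and 13.04 against 12.46, 12.37 and 12.23 (-0.66, SE 0.08, limma adjusted p 3.78e-05), close to the change of KPNA2.

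Of 20 mRNA export genes 6 fell and 1 rose (median -0.14), where 22.2% of all genes fell and 23.2% rose. Among them were ALYREF, an adaptor that loads mRNA, at -0.91, the helicase DDX39A at -0.72, NXT1, a subunit of the mRNA export receptor, at -0.60 and THOC1 at -0.39 (limma adjusted p 1.28e-05, 7.44e-06, 0.000107 and 0.002). With centred arrays 10 fell and 0 rose, where 30.6% of all genes fell and 20% rose. Of 15 genes of the nuclear lamina and envelope 6 fell and 3 rose (median -0.11), against the same 22.2% and 23.2%. TMPO, which binds lamins and chromatin, and LMNB1, a lamin gene, both fell by 1.46 on the log2 scale, the related LMNB2 fell by 1.03, and SYNE2, which links the nucleus to the cytoskeleton, rose by 0.69 (limma adjusted p 6.59e-07, 4.51e-07, 3.9e-06 and 0.000229).

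**Figure D4:**
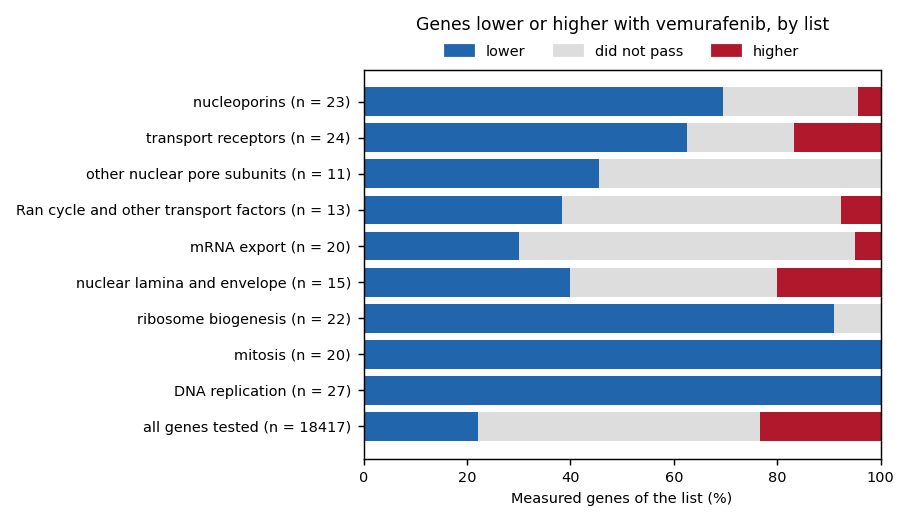
Percentage of measured genes of each list (horizontal axis) that were lower (blue), did not pass (grey) or were higher (red) with vemurafenib, with the number measured beside each name. Of 23 nucleoporins 16 were lower and of 24 transport receptors 15, against 5 of 11 other pore subunits, 5 of 13 RAN cycle and transport genes, 6 of 20 mRNA export genes and 22.2% of all genes.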

How the data were processed

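RNA of A375 cells was read on 6 single-colour Affymetrix arrays, 3 vehicle and 3 vemurafenib, from 250 ng each per the labels. Each deposited value is the log2 level of a probe set, and the authors used RMA and Partek, per the submitters' processing notes, with no versions. RMA usually quantile normalizes arrays, which hides a change in total RNA. Over all 33297 probe sets, array medians ran from 7.69 to 7.73. Centring used the array medians over the 18417 genes instead. The number of arrays limits the precision. No genome build of the values is given in the sources used here. Names came from the platform annotation of 2016, and all 47 members matched the RefSeq table (GRCh38.p14, also the source of promoters) by Entrez identifier.

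limma 3.58.1 in R 4.3.3 (lmFit, eBayes, 2-sided, group as the only term) was fitted on all 18417 genes, with Benjamini-Hochberg adjustment. The fit was also run on simulated data with a far smaller share of changed genes. That run therefore does not show the error rate in these arrays. The members and lists were chosen with earlier results of these data known. Values in every array are given for the 15 members with the largest change past the threshold, the 4 with the smallest, members that rose, and KPNA2, KPNB1, XPO1, NUP98 and NUP153. For SEH1L, NDC1, RANBP1, RANGAP1, RAN, CSE1L and TPR, which lie outside that rule, they were added after their values were seen. From each other list up to 4 genes that passed are named, with TPR, RANBP2 and a few fixed genes. Alternatives were a replicate block, centring, renewed quantile normalization, filters on dim genes, averaging of probe sets within genes, an intensity trend with robust eBayes, the members without the pseudogene and omission of each array.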

Additional observations from a re-analysis of the deposited data

How the results depend on the processing

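Over 13 alternative fits, 37 of the 47 genes kept their call in every fit that held them, 31 of these called. The count of fallers ran from 27 to 36, and that of risers from 3 to 5. The 27 came without vehicle replicate 1, where 18.4% of all genes fell, and the 36 with centred arrays, where 30.6% fell. The 3 risers came without the dimmest 50% of genes, a set that does not hold KPNA5 or KPNA7 and of which 32.5% rose. The median change of -0.47 was -0.39 after renewed quantile normalization, the cause was not tested, and -0.48 without the pseudogene. With the replicate number as a block 28 of the 47 fell and 5 rose, where 19.6% of all genes fell and 21.7% rose. The labels do not show which arrays share a stock: deviations of same-numbered arrays correlated at 0.14, -0.18 and -0.25, so the numbers were not taken as pairs. Vehicle array 2 correlated best with drug array 3 (0.28) and vehicle array 3 with drug array 2 (0.22), a hint from the data and not the design, and no other pairing was fitted. Under that block IPO7, TNPO2 and XPOT did not pass (limma adjusted p 0.0834, 0.053 and 0.0522). Centring moved the median of all genes from -0.045 to -0.106, and the lower share of all calls from 48.9% to 60.5%. Centred, NUP210L passed as lower (limma adjusted p 0.0352), and mRNA export fallers went from 6 to 10. The count of mRNA export risers, 1, ranged from 0 to 2 over the alternatives. Among changes near 0, the sign turned for NUP42 (0.03 without vemurafenib replicate 3, lowest -0.15 over omitted arrays), TPR (-0.03 when centred, 0.00 to 0.06 over omitted arrays, 0.08 after renewed quantile normalization) and MLANA (0.03 after renewed quantile normalization, -0.06 to 0.09 over omitted arrays). Signal over background limits KPNA7, NUP210L and NUP62CL.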
